A study of Mus musculus with 8 samples.

Results

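The EphB receptors Ephb1, Ephb2, Ephb3, Ephb4 and Ephb6 and the ephrin-B ligands Efnb1, Efnb2 and Efnb3 were measured in mouse sciatic nerve by RNA sequencing. The 8 genes were chosen by symbol from the 23356 genes of the expression table, and Ephb1 had drawn attention to the family through its values across the genotypes. Its values and differences are therefore given as a description, with no test in any comparison. All 8 genes were in the table and all 8 passed the filter of a mean of at least 1 FPKM (fragments scaled by transcript length and library size), as did 12530 genes in total.

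Nerves came from mice at postnatal day 30 on an F1 C57BL/6;FVB/N strain, in 4 genotypes with 2 libraries each. HA-NRG1 type III/+:Q215X/+ mice, called the double genotype here, carried a transgene for HA-tagged neuregulin 1 type III together with the Q215X mutation. HA-NRG1 type III/+ mice carried the transgene alone, Q215X/+ mice carried the mutation alone, and WT mice carried neither. The series sets the transgene in the setting of congenital hypomyelination neuropathy, a disease of poor myelin formation. The promoter of the transgene, and whether a library pooled nerves or animals, are not stated in these sources. The table numbers the libraries of each genotype 0 and 1, and these numbers are called set 0 and set 1. Values of a genotype are given in that order.

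Eph receptors are receptor tyrosine kinases that bind ephrins on a neighbouring cell, so that signalling starts where cells touch. Ephrin-B ligands span the membrane, and binding sends a forward signal into the cell with the receptor and a reverse signal into the cell with the ligand. The family is known for repulsion and sorting of cells and for axon guidance, and ephrin-B2 and EphB4 mark arterial and venous endothelium. In cut rodent nerve, contact between ephrin-B on fibroblasts and EphB2 on Schwann cells is known to sort Schwann cells into cords through Sox2 and N-cadherin.

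Ephb1 lies on chromosome 9 of GRCm38 (the build also called mm10), on the minus strand, at 101922128 to 102354693. Efnb2 lies on chromosome 8, minus strand, at 8617434 to 8661242. Ephb3 lies on chromosome 16, plus strand, at 21204755 to 21223305. These 3 genes had higher FPKM in each of the 4 transgenic libraries than in any of the 4 libraries without the transgene, so their promoters are shown, each from 250 bases before to 50 bases after the RefSeq start. The Ephb1 window is chr9:102354644-102354943 (minus strand), the Efnb2 window chr8:8661193-8661492 (minus strand) and the Ephb3 window chr16:21204545-21204844 (plus strand), all in RefSeq GRCm38.p6. Sequences run 5′ to 3′ on the gene's strand. Capitals mark matches, on either strand, to the letters TATAAA of the TATA box, the letters CCAAT of the CCAAT box or the letters GGGCGG of the GC box.
Ephb1: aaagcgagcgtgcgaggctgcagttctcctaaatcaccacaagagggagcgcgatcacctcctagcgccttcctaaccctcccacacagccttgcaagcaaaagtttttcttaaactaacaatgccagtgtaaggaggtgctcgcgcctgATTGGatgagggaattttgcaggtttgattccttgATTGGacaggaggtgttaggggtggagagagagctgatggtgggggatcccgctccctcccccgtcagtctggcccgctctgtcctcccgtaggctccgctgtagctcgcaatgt
Efnb2: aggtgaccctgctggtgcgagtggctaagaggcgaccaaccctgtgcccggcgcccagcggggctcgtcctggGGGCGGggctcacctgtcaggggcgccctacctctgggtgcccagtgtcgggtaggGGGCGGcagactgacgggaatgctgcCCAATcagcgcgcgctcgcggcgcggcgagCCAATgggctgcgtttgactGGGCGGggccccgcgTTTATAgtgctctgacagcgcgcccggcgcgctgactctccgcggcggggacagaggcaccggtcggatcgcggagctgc
Ephb3: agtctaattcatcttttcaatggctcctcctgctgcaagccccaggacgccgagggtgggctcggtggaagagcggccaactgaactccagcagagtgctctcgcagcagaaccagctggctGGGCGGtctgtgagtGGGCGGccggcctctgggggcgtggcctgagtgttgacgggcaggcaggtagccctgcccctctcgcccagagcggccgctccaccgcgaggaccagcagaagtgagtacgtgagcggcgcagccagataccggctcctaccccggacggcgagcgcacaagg

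The Ephb1 window held 2 matches to CCAAT, both on the opposite strand and beginning 100 and 65 bases before the start, and no match to the TATA box or the GC box. The Efnb2 window held 1 TATAAA match, on the opposite strand and beginning 30 bases before the start, 2 CCAAT matches and 3 GGGCGG matches. Ephb3 had 2 GGGCGG matches and neither of the other motifs. Over 32851 mouse promoters of the same length, 37.4% held CCAAT, 35.7% held GGGCGG and 13.6% held TATAAA. The GC content was 55.7% for Ephb1, 72.3% for Efnb2 and 66.7% for Ephb3, against a median of 52.7% over all promoters. Of 7 motifs searched, 4 had no match in the 3 windows: the AP-1 letters TGANTCA (held by 7.81% of all promoters), the ETS letters CCGGAA (14.9%), the EGR letters GCGNGGGCG (5.55%) and the E-box letters CACGTG (7.15%). Matches in the 3 windows did not overlap each other. No motif was present in all 3, and a match is a description of letters only. RefSeq promoters were matched for 7 of the 8 genes.

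Total FPKM per library ranged over 443733 to 530901; fragment totals were not used here, so the depth of a value is unknown. Transcripts of Nrg1, the gene that the transgene copies, were at 0.498 and 0.358 FPKM in the double genotype, 0.393 and 0.312 in HA-NRG1 type III/+, 0.326 and 0.190 in Q215X/+ and 0.204 and 0.164 in WT, so transgenic libraries lay above the matching libraries without it, at low levels. The sources do not say whether the table counts transgene reads under Nrg1. Xist and Ddx3y, RNAs of female and male cells, marked the double and WT libraries as female and those of Q215X/+ as male, while HA-NRG1 type III/+ had a male library in set 0 and a female library in set 1. Sex and genotype therefore cannot be told apart in the double genotype against Q215X/+ or in Q215X/+ against WT. The transgene difference averaged over both backgrounds includes the double genotype against Q215X/+, so sex is not balanced in it. By limma, 124 genes passed in that averaged comparison, and 22 with a term for sex. Skeletal muscle markers summed to 874 FPKM in Q215X/+ set 1 and to 2.91 to 68.7 FPKM in the other 7 libraries.

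Among the receptors, Ephb6, a family member whose kinase is inactive, had the highest FPKM, with a mean of 37.6 over the 8 libraries. Efnb1 followed at 29.7, then Efnb3 at 13.0 and Ephb4 at 12.9, Ephb3 at 8.63, Ephb2 at 6.71, Efnb2 at 6.32 and Ephb1 at 6.19. FPKM is scaled by transcript length, so these are levels that can be set beside each other. Ephb6 lay above Efnb1 in 8 of 8 libraries and Efnb1 above Efnb3 in 8 of 8, without overlap of their ranges. The ranges of Efnb3 and Ephb4 overlapped, as did those of Ephb3 and Ephb2, of Ephb2 and Efnb2 and of Efnb2 and Ephb1, although Ephb3 was above Ephb2 within each library. Ephb1 varied most: its highest library was 3.86 times its lowest, and 98.1% of the tested genes had a smaller ratio. Those are the values that drew attention to Ephb1, so its place is a description only. The ratio was 1.66 for Efnb2, 1.65 for Efnb3 and between 1.14 and 1.33 for the other 5 genes.

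**Figure D1:**
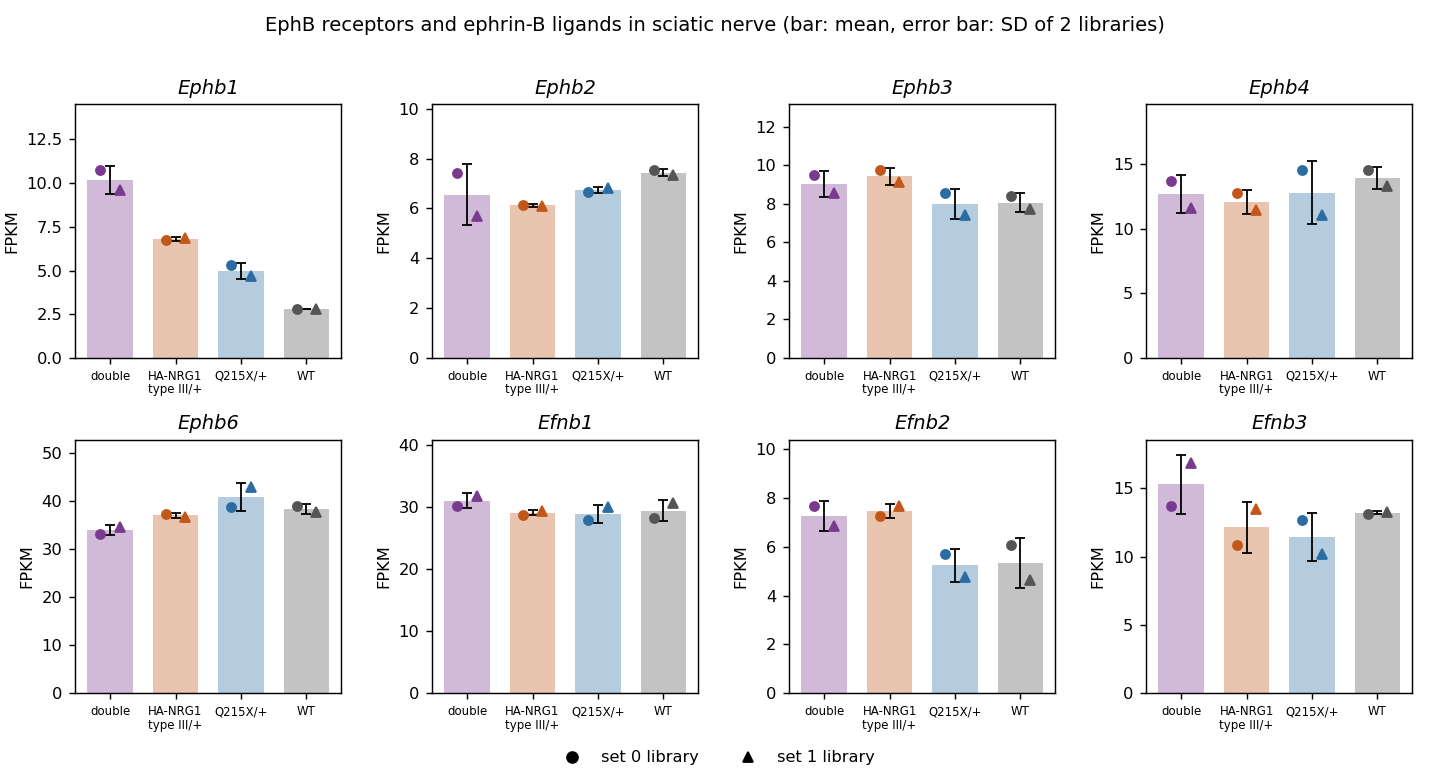
FPKM of the 8 genes by genotype, with bars for the mean of 2 libraries, error bars for the SD, circles for set 0 and triangles for set 1; "double" is HA-NRG1 type III/+:Q215X/+, and each panel has its own axis from 0. Ephb1 falls into 4 separate levels, from 10.7 and 9.62 FPKM in the double genotype to 2.81 and 2.79 FPKM in WT, while Efnb1 stays between 27.9 and 31.9 FPKM.

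Ephb1 encodes a receptor that in mice steers retinal axons away from the midline. It was at 10.7 and 9.62 FPKM in the double genotype, 6.73 and 6.87 FPKM in HA-NRG1 type III/+, 5.32 and 4.67 FPKM in Q215X/+ and 2.81 and 2.79 FPKM in WT. The 4 genotypes did not overlap, and each genotype stood above the next in that order. The mean was 10.2 ± 0.790 FPKM in the double genotype, 6.80 ± 0.0980 in HA-NRG1 type III/+, 4.998 ± 0.458 in Q215X/+ and 2.80 ± 0.0172 in WT (SD, n = 2 each).

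The double genotype had 2.04 times the Ephb1 level of Q215X/+, and HA-NRG1 type III/+ had 2.43 times that of WT. On the log2(FPKM + 1) scale, which understates changes of low genes, these differences were 0.90 and 1.04 (SE 0.09 each). They were 0.89 within set 0 and 0.90 within set 1 for the double genotype minus Q215X/+, and 1.02 and 1.06 for HA-NRG1 type III/+ minus WT. The double genotype stood at 3.64 times WT, a log2 difference of 1.56 (SE 0.09).

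The female HA-NRG1 type III/+ library, at 6.87 FPKM, and the male one, at 6.73 FPKM, both lay above the female WT libraries and the male Q215X/+ libraries. Among males the mutation differs along with the transgene, and the part of sex in the Ephb1 values was not tested. With 1 library left out, the Ephb1 difference was 0.82 to 0.98 for the double genotype minus Q215X/+ and 1.03 to 1.05 for HA-NRG1 type III/+ minus WT. Ephb1 drew attention through these same values, so the ranges are a description and no support. Beside these values, 8 fibroblast markers summed to 6676 to 6884 FPKM in the double genotype and 7011 to 7316 in HA-NRG1 type III/+. Their sums were 5985 to 6623 in Q215X/+ and 5664 to 6270 in WT. By gene, 4 of the 8 were above 0 and 4 below in the double genotype minus Q215X/+. In HA-NRG1 type III/+ minus WT, 7 were above 0 and 1 below. The 9 myelinating Schwann cell markers summed to 36216 to 37207 FPKM in the double genotype against 39291 to 40665 in Q215X/+. In HA-NRG1 type III/+ they summed to 40035 to 40492 against 41862 to 42533 in WT. By gene, all 9 were below 0 in both comparisons (medians -0.19 and -0.21), where 46.6% and 47.4% of all tested genes were above 0. Over both backgrounds 2 of the 9 fell by limma with the set as a block, where 3.69% of all tested genes did, and 0 fell without it. Red blood cell markers were lower with the transgene: their sum over 5 genes was 73.3 to 178 FPKM in the double genotype against 599 to 1279 in Q215X/+, and 49.1 to 89.7 in HA-NRG1 type III/+ against 239 to 244 in WT. Over both backgrounds 1 of these 5 genes fell by limma, where 0.455% of all tested genes fell, and 4 fell with the set as a block, where 3.69% did. The 7 markers of non-myelinating Schwann cells summed to 207 to 214 FPKM in the double genotype against 225 to 240 in Q215X/+. In HA-NRG1 type III/+ they summed to 201 to 217 against 219 to 248 in WT. By gene, 2 of the 7 were above 0 in the double genotype minus Q215X/+, against 46.6% of all tested genes. In HA-NRG1 type III/+ minus WT 5 of the 7 were above 0, against 47.4%. Of 8 axonal markers, 6 fell and 1 rose over both backgrounds with the block, where 3.69% of all tested genes fell and 3.42% rose, and 1 fell without it, where 0.455% did. The axonal sums overlapped, at 72.5 to 86.9 FPKM in the double genotype against 70.8 to 74.5 in Q215X/+, and 62.5 to 81.5 in HA-NRG1 type III/+ against 68.3 to 99.6 in WT. All 10 macrophage markers had averaged differences above 0, where 46.7% of all tested genes did, and 1 of them rose with the block, against the same 3.42%. Their sums were 405 to 436 FPKM in the double genotype against 370 to 379 in Q215X/+. In HA-NRG1 type III/+ they were 368 to 465, overlapping the 355 to 384 of WT. No marker of these lists was at 0 in all libraries, and their part in the Ephb1 values was not tested. In whole nerve, fewer cells of a type and less RNA per cell cannot be told apart.

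Q215X/+ against WT compares nerves with and without the mutation where no transgene is present, and Ephb1 is given here too with no test. Both Q215X/+ libraries were male and both WT libraries female, so mutation and sex cannot be told apart in these values. Q215X/+ nerves averaged 4.998 ± 0.458 FPKM and WT nerves 2.80 ± 0.0172 FPKM (SD, n = 2 each), a ratio of 1.79. The log2 difference was 0.66 (SE 0.09), with 0.73 within set 0 and 0.58 within set 1. None of the 7 other members passed in this comparison by limma, with p Benjamini-Hochberg adjusted over all 12530 genes, where 0.00798% of all tested genes did, and none passed with the set fitted as a block that the genotypes share. At an unadjusted limma p under 0.05 it was 0 of the 7, against 2.04% of all tested genes, and with the block again 0 of the 7, against 7.41%.

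The other members differed between Q215X/+ and WT by -0.20 to 0.09 on the log2 scale. Of the 7, Ephb2 and Efnb3 were lower in Q215X/+ without overlap and 0 were higher, where 10.2% of all tested genes were lower and 8.78% higher in this way. Among transgenic nerves, both double libraries had more Ephb1 than both HA-NRG1 type III/+ libraries. The transgene difference in Q215X/+ minus that in WT was -0.14 (SE 0.13) for Ephb1 and is given with no test.

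**Figure D2:**
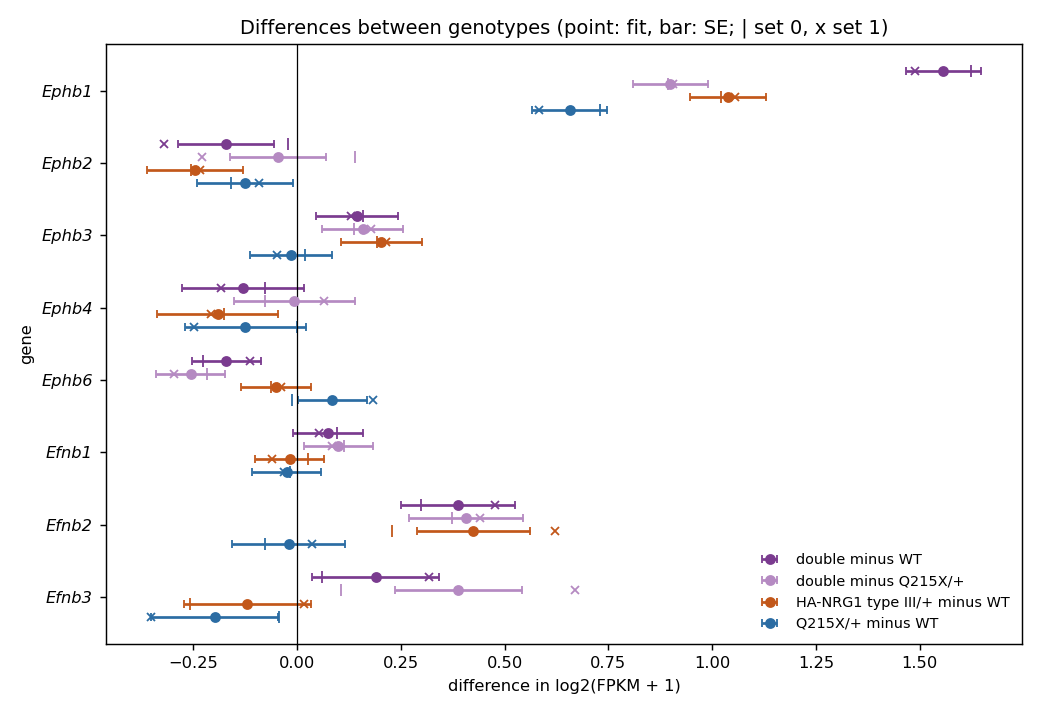
Differences in log2(FPKM + 1) between genotypes for each gene, with points for the fitted difference, bars for its SE, a tick for the difference within set 0 and a cross for that within set 1. Ephb1 lies to the right of 0 in all 4 comparisons, from 0.66 for Q215X/+ minus WT to 1.56 for the double genotype minus WT, and Efnb2 lies near 0.4 in the 3 comparisons that involve the transgene.

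Ephb3 encodes a receptor that helps position cells in the intestinal crypt. It was at 9.50 and 8.56 FPKM in the double genotype, 9.75 and 9.13 FPKM in HA-NRG1 type III/+, 8.54 and 7.45 FPKM in Q215X/+ and 8.41 and 7.74 FPKM in WT. All 4 transgenic libraries were above the 4 others, the lowest of them by a narrow margin (8.56 against 8.54 FPKM). The transgene difference, averaged over both backgrounds, was 0.18 (SE 0.07). Its limma adjusted p was 0.398, and 0.0484 with the set as a block. The blocked call ended when any 1 of the 8 libraries was left out (adjusted p = 0.0770 to 0.213) and with a term for sex beside the block (adjusted p = 0.158).

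Ephb6, the receptor without kinase activity, ran the other way. It was at 33.3 and 34.7 FPKM in the double genotype, 37.4 and 36.6 FPKM in HA-NRG1 type III/+, 38.8 and 42.9 FPKM in Q215X/+ and 39.1 and 37.7 FPKM in WT. The 4 transgenic libraries were below the 4 others, narrowly in HA-NRG1 type III/+ against WT. The averaged transgene difference was -0.15 (SE 0.06), with a limma adjusted p of 0.401, or 0.106 with the block. In the double genotype minus Q215X/+ it was -0.26 (SE 0.08, limma adjusted p = 0.578), and the highest Q215X/+ library was the one with skeletal muscle markers, whose part in this value was not tested.

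Ephb2, the receptor named in Schwann cell sorting, was at 7.41 and 5.68 FPKM in the double genotype, 6.15 and 6.09 FPKM in HA-NRG1 type III/+, 6.64 and 6.83 FPKM in Q215X/+ and 7.53 and 7.33 FPKM in WT. The double libraries spanned those of Q215X/+, while HA-NRG1 type III/+ lay below WT by 0.24 on the log2 scale (SE 0.12, limma adjusted p = 0.807). Ephb4, the receptor of venous endothelium, was at 13.7 and 11.6 FPKM in the double genotype, 12.7 and 11.4 FPKM in HA-NRG1 type III/+, 14.5 and 11.1 FPKM in Q215X/+ and 14.5 and 13.3 FPKM in WT. Its set 1 library was lower than its set 0 library in all 4 genotypes. The averaged transgene difference was -0.14 (SE 0.08) for Ephb2 and -0.10 (SE 0.10) for Ephb4, and neither passed (limma adjusted p = 0.650 and 0.903).

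Efnb2 encodes the ligand of arterial endothelium. It was at 7.68 and 6.83 FPKM in the double genotype, 7.27 and 7.65 FPKM in HA-NRG1 type III/+, 5.70 and 4.76 FPKM in Q215X/+ and 6.06 and 4.62 FPKM in WT. Every transgenic library was above every library without the transgene, and Q215X/+ and WT overlapped. The ratio of means was 1.39 for the double genotype to Q215X/+ and 1.40 for HA-NRG1 type III/+ to WT, with log2 differences of 0.41 and 0.43 (SE 0.14 each). Neither difference passed alone (limma adjusted p = 0.592 and 0.507).

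Averaged over both backgrounds, the Efnb2 difference was 0.42 (SE 0.10), and each of the 4 pairs within a set was higher with the transgene. The limma adjusted p was 0.141. With the set as a block Efnb2 rose (SE 0.07, adjusted p = 0.0225). That call ended with a term for sex beside the block (adjusted p = 0.0603) and when any 1 library other than HA-NRG1 type III/+ set 0 was left out (adjusted p = 0.0326 without that library, and up to 0.127). The 11 endothelial markers summed to 277 to 303 FPKM in the double genotype, 273 to 332 in HA-NRG1 type III/+, 221 to 295 in Q215X/+ and 263 to 324 in WT. These sums overlapped, but within each set they too were higher with the transgene: 277 against 221 (set 0) and 303 against 295 (set 1) for the double genotype against Q215X/+, and 273 against 263 (set 0) and 332 against 324 (set 1) for HA-NRG1 type III/+ against WT. Averaged transgene differences were above 0 for 10 of the 11 markers, with a median of 0.10 (log2), where 46.7% of all tested genes were above 0. With the block 1 fell, where 3.69% of tested genes did. In the double genotype minus Q215X/+ 10 of the 11 were above 0 (median 0.22), against 46.6% of all tested genes. In HA-NRG1 type III/+ minus WT it was 7 of the 11 (median 0.016), against 47.4%. None was at 0 in all libraries. The fibroblast sums given with Ephb1 did not overlap, though by gene 4 of the 8 markers were below 0 in the double genotype minus Q215X/+. Of 8 pericyte and smooth muscle markers, 6 had averaged differences above 0 (median 0.05), and 1 rose with the block, where 3.42% of all tested genes did. By comparison, 7 of the 8 were above 0 in the double genotype minus Q215X/+ and 4 in HA-NRG1 type III/+ minus WT. The part of any of these cell types in Efnb2 was not tested.

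Efnb3, which in the mouse spinal cord forms a midline barrier to axons, was at 13.7 and 16.8 FPKM in the double genotype, 10.8 and 13.5 FPKM in HA-NRG1 type III/+, 12.7 and 10.2 FPKM in Q215X/+ and 13.1 and 13.3 FPKM in WT. It was higher in the double genotype than in Q215X/+ by 0.39 (SE 0.15, limma adjusted p = 0.726), with 0.11 within set 0 and 0.67 within set 1. HA-NRG1 type III/+ and WT overlapped, with a difference of -0.12 (SE 0.15). The difference between these differences was 0.51 (SE 0.22) and did not pass (limma adjusted p = 1, or 0.965 with the block).

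Efnb1, an X-linked ligand, was the steadiest member. It was at 30.3 and 31.9 FPKM in the double genotype, 28.8 and 29.4 FPKM in HA-NRG1 type III/+, 27.9 and 30.0 FPKM in Q215X/+ and 28.3 and 30.7 FPKM in WT. Its averaged transgene difference was 0.04 (SE 0.06, limma adjusted p = 0.954).

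Counted over the family, the double genotype against Q215X/+ had 5 genes higher without overlap (Ephb1, Ephb3, Efnb1, Efnb2 and Efnb3) and 1 lower (Ephb6), where 14.6% of all tested genes were higher and 15.2% lower in this way. HA-NRG1 type III/+ against WT had 3 higher (Ephb1, Ephb3 and Efnb2) and 3 lower (Ephb2, Ephb4 and Ephb6), where 14.7% and 15.7% of all tested genes were so. Over both backgrounds 3 were higher and 1 lower, where 4.88% and 5.2% of tested genes were. The double genotype against WT had 4 higher and 1 lower, where 14.4% and 16.7% of tested genes were. Ephb1 is among these counts through the values that chose it. Comparisons that share the WT or the double libraries are not independent of each other.

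By limma without the block, none of the 7 members other than Ephb1 passed in any of these comparisons. The share of all tested genes that passed was 0.0399% for the double genotype minus Q215X/+, 0.0638% for HA-NRG1 type III/+ minus WT, 0.112% for the double genotype minus WT and 0.99% over both backgrounds. At an unadjusted p under 0.05, 3 of the 7 (Ephb6, Efnb2 and Efnb3) stood out in the double genotype minus Q215X/+ and 1 of the 7 (Efnb2) in HA-NRG1 type III/+ minus WT, against 6.58% and 6.9% of all tested genes. By the same measure it was 1 of the 7 (Efnb2) in the double genotype minus WT and 3 of the 7 (Ephb3, Ephb6 and Efnb2) over both backgrounds, against 7.29% and 11.2%. With the block, 2 of the 7 rose over both backgrounds, Ephb3 and Efnb2, where 3.42% of all tested genes rose and 3.69% fell. None of the 7 passed in the test of whether the transgene difference depended on the background, with the block or without, where 0.00798% of tested genes did. At an unadjusted p under 0.05 it was 0 of the 7 without the block, against 1.11% of tested genes, and 1 with it (Efnb3), against 4.78%.

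The median averaged transgene difference of the 7 genes without Ephb1 was 0.04, and over all tested genes it was -0.01. No label ties the libraries of a genotype to separate animals, and p-values here reflect only the spread between libraries.

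The make-up of the receptor pool followed Ephb1 and Ephb6. The summed FPKM of the 5 receptors was 72.4 ± 3.15 in the double genotype, 71.5 ± 1.89 in HA-NRG1 type III/+, 73.4 ± 0.675 in Q215X/+ and 70.6 ± 2.50 in WT (SD, n = 2 each). These sums overlapped. Ephb1 made up 14.4% and 13.7% of the sum in the double genotype, 9.24% and 9.79% in HA-NRG1 type III/+, 7.21% and 6.41% in Q215X/+ and 3.88% and 4.05% in WT. Ephb6 made up 44.6% and 49.5% in the double genotype, against 52.6% and 58.8% in Q215X/+, and 51.4% and 52.2% in HA-NRG1 type III/+, against 54.0% and 54.7% in WT. The 3 ligands summed to 53.7 ± 2.73 FPKM in the double genotype, 48.7 ± 2.54 in HA-NRG1 type III/+, 45.7 ± 0.951 in Q215X/+ and 48.1 ± 0.813 in WT. Both double libraries were above both Q215X/+ libraries, and the ligand sums of HA-NRG1 type III/+ and WT overlapped.

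**Figure D3:**
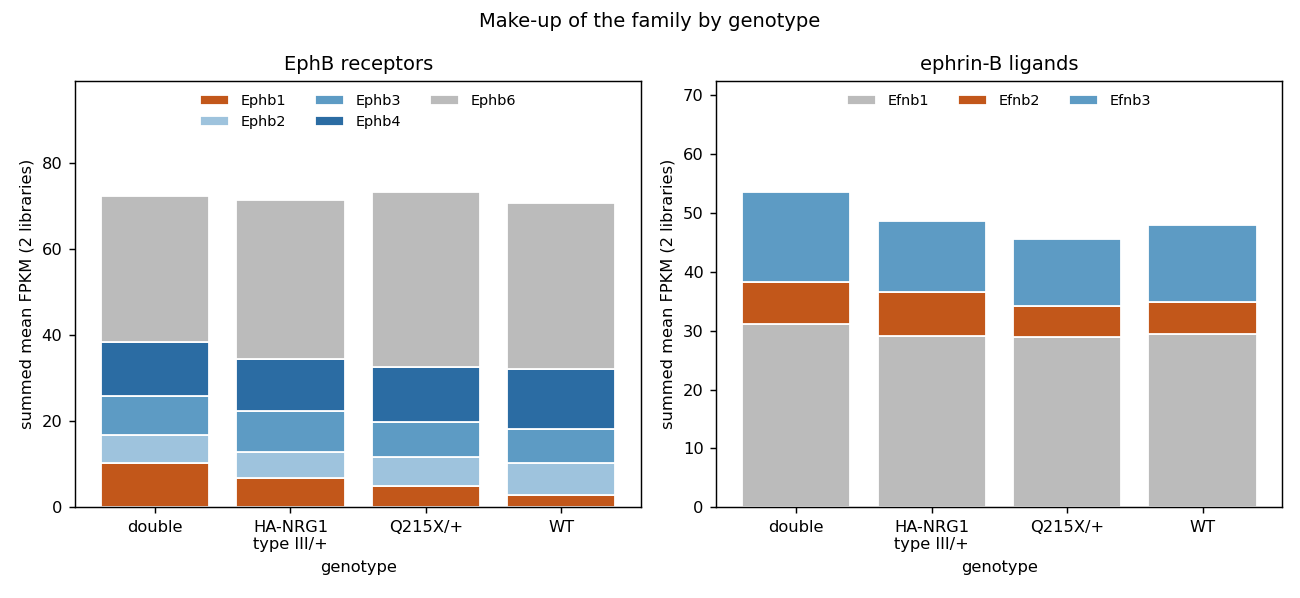
Mean FPKM of the 5 receptors (left) and the 3 ligands (right), stacked, by genotype, with 2 libraries behind each mean and no error drawn. The receptor stacks reach 70.6 to 73.4 FPKM in all genotypes while their Ephb1 layer, at the bottom, is thickest in the double genotype (10.2 FPKM) and thinnest in WT (2.80 FPKM).

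In GENCODE transcripts of GRCm38, no stretch of 50 bases was shared between members. Of 6484 such stretches in Ephb1, 1.68% were shared with another gene, all with Gm26846, a long noncoding RNA on the opposite strand that overlaps 152 exon bases of Ephb1 and has no value in the table under that name. Ephb4 overlaps 33 exon bases of Zan on the opposite strand, and Zan was at 0.0483 to 0.120 FPKM. The sources do not say whether counting used strand, so Ephb1 and Gm26846 cannot be told apart within that overlap.

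Of the genes around Ephb1, 40 were annotated within 1 megabase and 14 were tested. Their averaged transgene differences ran from -0.49 to 0.14 (log2), against 0.97 for Ephb1. The lowest was Amotl2, which encodes an angiomotin family scaffold and is named for its value. Amotl2 was at 30.2 and 31.5 FPKM in the double genotype, 32.9 and 35.7 FPKM in HA-NRG1 type III/+, 46.5 and 41.5 FPKM in Q215X/+ and 47.7 and 48.2 FPKM in WT. It fell by 0.49 (SE 0.06, limma adjusted p = 0.0358, or 0.00705 with the block). Without the block the call ended when any 1 library was left out (adjusted p = 0.0867 to 0.172), with a term for sex (0.123) and with no filter on low values (0.0503). The blocked call ended without either double library (adjusted p up to 0.0617). No other neighbour passed, so 1 of the 14 fell, where 0.455% of all tested genes fell without the block and 3.69% with it.

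**Figure D4:**
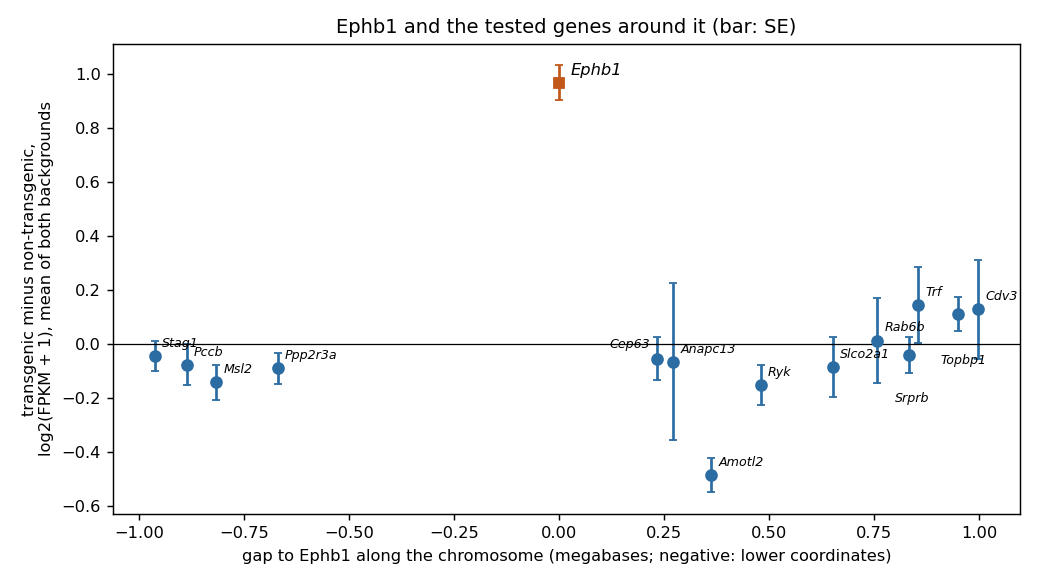
Averaged transgene difference in log2(FPKM + 1) of Ephb1 (orange square) and of the 14 tested genes within 1 megabase (blue circles), against the gap between gene ends in megabases, with bars for the SE. Ephb1 stands at 0.97, Amotl2 at -0.49 and the other 13 between -0.15 and 0.14.

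The genes whose pattern over the 8 libraries was most like Ephb1, by Pearson's r of log2(FPKM + 1), were Enpp2 (0.988), Pla2g7 (0.979), Cyp2j13 (0.979), Bai1 (0.977) and Emid1 (0.975). The most opposed were Syp (-0.988), Epn2 (-0.975), Camk2b (-0.972), Rassf4 (-0.968) and Arhgef16 (-0.965). Enpp2, which encodes autotaxin, averaged 67.6 FPKM in the double genotype, 60.2 in HA-NRG1 type III/+, 56.1 in Q215X/+ and 45.5 in WT. Cyp2j13, a cytochrome P450, averaged 12.8 FPKM in the double genotype, 9.51 in HA-NRG1 type III/+, 5.78 in Q215X/+ and 2.54 in WT. Syp, the synaptic vesicle protein synaptophysin, averaged 8.43 FPKM in the double genotype, 9.71 in HA-NRG1 type III/+, 11.1 in Q215X/+ and 13.5 in WT. All points share the 8 libraries and their 4 genotypes, so genes that differ by genotype resemble each other here. Among members r with Ephb1 was 0.75 for Efnb2, 0.64 for Ephb3, 0.37 for Efnb1, 0.34 for Efnb3, -0.32 for Ephb4, -0.54 for Ephb2 and -0.69 for Ephb6.

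Genes that act with the family were taken from 6 lists. Of 9 EphA receptors 3 were tested, of 5 ephrin-A ligands 4, of 35 forward signalling genes 32, of 12 reverse signalling genes 9, of 14 processing genes 13 and of 8 Schwann cell sorting genes 5. No gene of these lists passed in any comparison by limma without the block. At an unadjusted p under 0.05, 13 of their 66 tested genes stood out over both backgrounds, where 11.2% of all tested genes did. With the block, 6 genes passed in at least 1 comparison. The share of all tested genes that passed was 7.1% over both backgrounds, 1.72% in the double genotype minus Q215X/+ and 2.39% in the double genotype minus WT. Sex is not balanced over both backgrounds or in the double genotype minus Q215X/+, so these calls are not of the transgene alone. Medians of the averaged transgene difference were 0.02 for EphA receptors, 0.10 for ephrin-A ligands, 0.01 for forward signalling, -0.05 for reverse signalling, 0.03 for processing and 0.17 for Schwann cell sorting, against -0.01 over all tested genes.

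Over both backgrounds, 1 of the 5 tested Schwann cell sorting genes rose with the block and 1 fell. Of all tested genes, 3.42% rose and 3.69% fell in this way. The gene that fell was Cdh2, which encodes N-cadherin. Cdh2 was at 12.2 and 11.6 FPKM in the double genotype, 10.2 and 11.4 FPKM in HA-NRG1 type III/+, 15.6 and 15.5 FPKM in Q215X/+ and 13.8 and 17.8 FPKM in WT, so the 4 transgenic libraries were below the 4 others. It fell by 0.43 (limma adjusted p = 0.0232 with the block and 0.104 without), and the call held in 1 of 8 blocked fits with a library left out, the one without WT set 0. Slit3, which encodes a secreted guidance protein, was at 12.6 and 11.5 FPKM in the double genotype, 9.99 and 10.4 FPKM in HA-NRG1 type III/+, 9.67 and 8.97 FPKM in Q215X/+ and 9.58 and 7.50 FPKM in WT. It rose by 0.29 (adjusted p = 0.0499 by limma with the block, 0.236 without), and without any 1 library the blocked call ended.

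Mmp2, a matrix metalloprotease, was the 1 of 13 processing genes that passed over both backgrounds with the block, where 7.1% of all tested genes did. It was at 243 and 212 FPKM in the double genotype, 237 and 222 FPKM in HA-NRG1 type III/+, 180 and 156 FPKM in Q215X/+ and 196 and 153 FPKM in WT. All transgenic libraries were above all others. It rose by 0.42 (limma adjusted p = 0.00981 with the block and 0.192 without), and the blocked call ended only without either double library. Mmp2 is abundant in fibroblasts, whose marker sums are given above and also did not overlap. By gene, 4 of the 8 fibroblast markers were below 0 in the double genotype minus Q215X/+. The part of fibroblasts in Mmp2 was not tested.

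Git1, an adaptor in ephrin-B reverse signalling, was at 65.3 and 56.4 FPKM in the double genotype, 66.7 and 60.2 FPKM in HA-NRG1 type III/+, 82.1 and 71.0 FPKM in Q215X/+ and 79.4 and 68.8 FPKM in WT. Set 1 was lower in all 4 genotypes, and the transgenic libraries were below the others. It fell by 0.27 over both backgrounds (limma adjusted p = 0.0105 with the block and 0.326 without), and passed with the block in the double genotype minus Q215X/+ (0.0415) and minus WT (0.0486). The first call ended without HA-NRG1 type III/+ set 0 or either double library, and the other calls without any 1 library. Of the 9 reverse signalling genes tested it was the only one that passed. With the block, 7.1% of all tested genes passed over both backgrounds, 1.72% in the double genotype minus Q215X/+ and 2.39% in the double genotype minus WT.

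Epha2, an EphA receptor, was at 7.32 and 6.72 FPKM in the double genotype, 7.55 and 6.46 FPKM in HA-NRG1 type III/+, 8.23 and 8.18 FPKM in Q215X/+ and 8.73 and 8.58 FPKM in WT, and fell by 0.24 (limma adjusted p = 0.0401 with the block and 0.203 without). Chn1, a Rac inhibitor that acts below Eph receptors, was at 20.0 and 19.0 FPKM in the double genotype, 17.7 and 16.6 FPKM in HA-NRG1 type III/+, 17.0 and 17.8 FPKM in Q215X/+ and 15.2 and 15.1 FPKM in WT. HA-NRG1 type III/+ and Q215X/+ overlapped, and both lay above WT and below the double genotype. Chn1 rose by 0.35 in the double genotype minus WT with the block (limma adjusted p = 0.0450, against 0.270 without). The Epha2 and Chn1 calls ended without any 1 library. Of the ephrin-A ligands none passed; Efna4 differed by 0.24 (SE 0.09) and Efna2 by 0.11 (SE 0.10) over both backgrounds, with limma adjusted p = 0.354 and 0.860. At an unadjusted p under 0.05 Efna4 stood out among them.

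**Figure D5:**
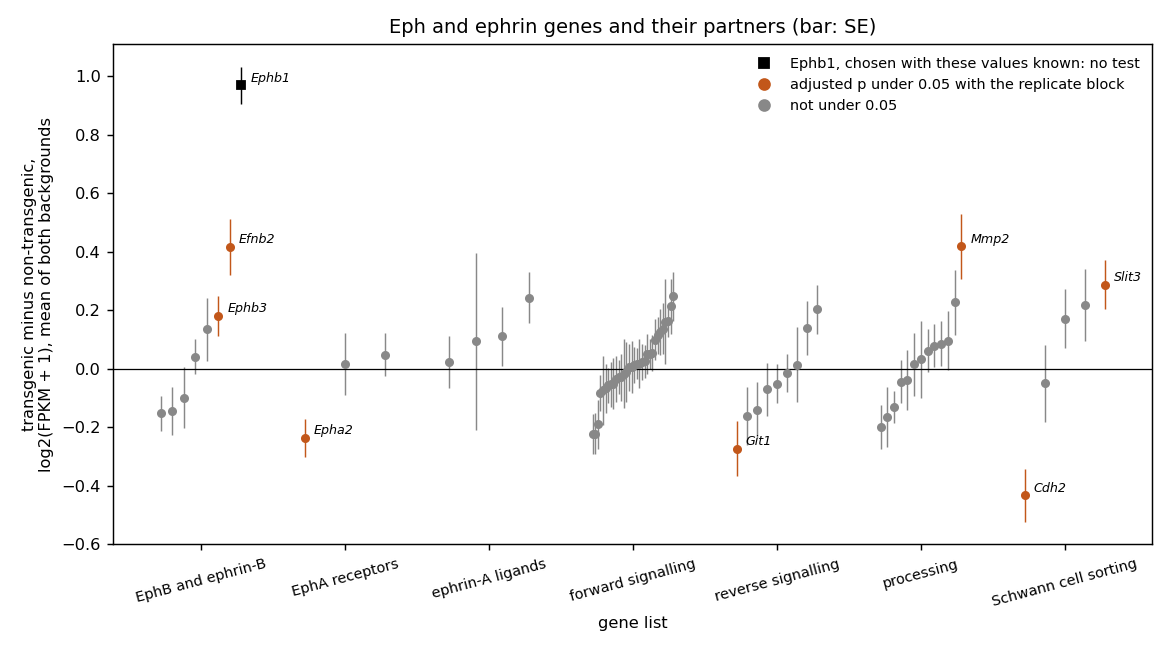
Averaged transgene difference in log2(FPKM + 1) of each tested gene in the family and in 6 lists of genes that act with it, with bars for the SE of the fit without the block; orange marks an adjusted p under 0.05 with the block, and the black square is Ephb1, which is given with no test. Ephb1 stands at 0.97, and the largest other difference is -0.43 for Cdh2. Efnb2 (0.42) and Mmp2 lie nearly as far from 0 on the other side, and most of the remaining genes lie nearer 0.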

How the data were processed

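RNA was sequenced from 8 poly(A)-selected TruSeq libraries of sciatic nerve, 2 per genotype. The authors deposited 1 table of FPKM per gene. Per the submitters' processing notes the tools were TopHat2 2.0.9 and Cufflinks 2.2.0, on mm10, with no role, annotation or strand setting stated there. Every line of the table had an empty second field, which was not used. Columns were assigned to genotypes by name, the abbreviated stem of HA-NRG1 type III/+ by elimination; the column ending (set 0 or 1) is tied to no replicate number by a label.

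The 12530 of 23356 genes that averaged 1 FPKM or more were fitted as log2(FPKM + 1) with limma 3.58.1 (R 4.3.3; empirical Bayes with trend), 4 genotype means sharing 1 spread with 4 residual degrees of freedom, Benjamini-Hochberg adjusted over all tested genes and called under 0.05. The averaged transgene difference is the mean of the double genotype minus Q215X/+ and HA-NRG1 type III/+ minus WT. Libraries of the same set deviated together in all 6 genotype pairs (correlation of deviations across genes 0.118 to 0.304), so blocked values are given where they change a call; the pairing comes from the data, not from a label.

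Precision is limited by 2 libraries per genotype. Alternatives were the set block, a pseudocount of 0.1, no filter, a mean of at least 5 FPKM, median-ratio scaling, a term for sex and each library left out; block with sex and block with a library left out were added after seeing the data. The 8 members and the gene lists were chosen with earlier results of these data known. Genes named from the lists are those called in any comparison with or without the block, and otherwise the 2 with the smallest p over both backgrounds. One gene of the marker lists and library checks is not reported here and was left out of its list. Scripts (Python 3.11.15, pandas 2.3.3) were tested on simulated data.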

Additional observations from a re-analysis of the deposited data

How the results depend on the processing

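The size of the groups, 2 libraries each, limits these comparisons. Without the block none of the 7 members other than Ephb1 passed in any setting. With the replicate block, 265 genes passed in HA-NRG1 type III/+ minus WT (8 without it), 216 in the double genotype minus Q215X/+ (5 without), 890 over both backgrounds (124 without), 299 in the double genotype minus WT (14 without), and 1 in Q215X/+ minus WT and 1 in the difference of the transgene effects, as without it. The block added the calls of Efnb2, Ephb3, Epha2, Git1, Mmp2, Cdh2, Slit3 and Chn1 given above and ended none. With no filter on low values, the counts were 31 for HA-NRG1 type III/+ minus WT, 3 for the double genotype minus Q215X/+, 22 for Q215X/+ minus WT, 49 for the double genotype minus WT and 21 for the difference of effects. A stricter filter, 5 FPKM or more on average, left 4 for HA-NRG1 type III/+ minus WT and 71 over both backgrounds. A term for sex gave 9 for the double genotype minus Q215X/+, 22 over both backgrounds, 8 for Q215X/+ minus WT and 9 for the difference of effects. Leaving out 1 library gave 1 to 10 genes for HA-NRG1 type III/+ minus WT, 1 to 17 for the double genotype minus Q215X/+, 11 to 42 over both backgrounds, 1 to 15 for Q215X/+ minus WT, 4 to 17 for the double genotype minus WT and 3 to 11 for the difference of effects. The cause of these shifts was not tested.

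Signs turned only for differences that passed in no setting. With a term for sex these were Ephb4 in the double genotype minus Q215X/+ (0.14) and Efnb3 in HA-NRG1 type III/+ minus WT (0.025). In Q215X/+ minus WT they were Efnb1 (0.00284), Efnb2 (0.046) and Efnb3 (0.093). That term rests only on the difference between the 2 HA-NRG1 type III/+ libraries, which differ in set too. With 1 library left out, the ranges were -0.21 to 0.12 for Ephb2 and -0.19 to 0.18 for Ephb4 in the double genotype minus Q215X/+, -0.075 to 0.040 for Efnb1 and -0.27 to 0.025 for Efnb3 in HA-NRG1 type III/+ minus WT, and -0.10 to 0.074 for Ephb3, -0.31 to 0.058 for Ephb4, -0.082 to 0.033 for Efnb1 and -0.18 to 0.14 for Efnb2 in Q215X/+ minus WT. Of 755 alternatives over 47 single-gene results of genes other than Ephb1, 701 kept direction and side of the threshold, 25 passed newly, all with the block, and 12 lost the call, all for Amotl2. Ephb1, which carries no test, was compared by value alone: in 120 alternatives over 6 differences it kept its sign, and in 13 it moved by more than the spread between libraries. Ephb1 drew attention through these same values, so this too is a description and no support. With a pseudocount of 0.1 its averaged transgene difference was 1.13. Median-ratio scaling turned no sign.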
